A study of Mus musculus with 2 samples.

Results

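The genes described here are 9 guanine nucleotide exchange factors of ARF GTPases (Psd4, Psd3, Iqsec1, Cyth1, Cyth2, Cyth3, Cyth4, Gbf1 and Arfgef1) and the GTPase gene Arf6, chosen by name from the 54532 genes of the deposited table. All 10 were found there by symbol. The choice was made because Psd4 was already known to be near absent from one of the libraries, so the Psd4 difference is a description and not a finding of this choice. RNA sequencing was done on RAW264.7 cells, a line of macrophage-like cells from a mouse tumour. The library labelled RNF138 knockout and the library labelled wild type (WT) both came from cells given lipopolysaccharide (LPS) at 100 ng/ml for 3 hours. The labels do not say how the knockout was made or whether it is a clone. Each group had 1 library, so no difference below has a replicate check, no test across samples was possible, and all intervals (95%) cover counting error only. The question the study's labels pose is how loss of RNF138, a RING-type ubiquitin ligase, alters transcription after LPS.

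ARF proteins are small GTPases of membrane traffic that cycle between a GDP-bound and a GTP-bound state. Exchange factors load them with GTP through a shared catalytic fold, the Sec7 domain, and GTPase-activating proteins return them to the GDP-bound state. ARF6 acts mainly at the plasma membrane and on endosomes, where it takes part in receptor recycling, actin remodelling and phagocytosis in macrophages. ARF1 and its close relatives act mainly at the Golgi, where they recruit the COPI coat and clathrin adaptors. Among the exchange factors, the EFA6 proteins (products of Psd, Psd2, Psd3 and Psd4) and the BRAG proteins (Iqsec genes) act on ARF6 among other ARFs. The cytohesins (Cyth genes) act at the cell periphery, and GBF1 and the BIG proteins (Arfgef1, Arfgef2) act at the Golgi.

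The stretch that unites the exchange factors is shown for each exchange factor member. These are the 16 codons around the catalytic glutamate of the Sec7 domain, read 5′ to 3′ from GENCODE M21 transcripts (GRCm38), with the glutamate codon in capitals.
Psd4: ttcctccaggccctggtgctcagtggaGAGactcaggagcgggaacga
Psd3: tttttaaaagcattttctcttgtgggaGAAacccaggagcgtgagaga
Iqsec1: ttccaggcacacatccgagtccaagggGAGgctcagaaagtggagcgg
Cyth1: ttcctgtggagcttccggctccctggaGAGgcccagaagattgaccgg
Cyth2: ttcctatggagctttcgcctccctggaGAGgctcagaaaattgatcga
Cyth3: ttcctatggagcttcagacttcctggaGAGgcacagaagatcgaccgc
Cyth4: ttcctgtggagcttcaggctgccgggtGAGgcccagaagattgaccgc
Gbf1: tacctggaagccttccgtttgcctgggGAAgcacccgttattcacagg
Arfgef1: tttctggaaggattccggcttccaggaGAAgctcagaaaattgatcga
The stretch was found in all 9 exchange factor members. Psd4 shared between 20 and 29 of its 48 bases with the others. The member closest to it by encoded residues was Psd3, with 12 of 16 codons for the same residue. Psd and Psd2, which are no members, were not compared. Low sharing was not particular to Psd4: against Cyth2, Psd3 shared 24 of 48 bases, Gbf1 25, Iqsec1 30 and Arfgef1 36. The 4 cytohesins encoded the same residue at all 16 codons, while Cyth1, Cyth3 and Cyth4 shared 37 to 41 of 48 bases with Cyth2. Over whole transcripts, none of the 11961 distinct 50-base words of Psd4 occurred in a transcript of any other gene, on either strand. Words shared with other genes made up 0% for Cyth1, Cyth3 and Cyth4 too. The highest shares were 7.69% for Cyth2 and 7.68% for Arf6, both from an annotated gene on the opposite strand.

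Before the members, the libraries themselves were examined. The library labelled knockout held 19032311 counts and the library labelled wild type 15573989. Rnf138, the targeted gene, had 4764 counts in the library labelled knockout and 602 in the library labelled wild type, a level 6.55-fold higher (6.01 to 7.14), so it goes against the label. Every direction below therefore rests on the labels as given, and the groups are named as labelled. All 10 macrophage markers examined were present, with 183 to 26536 counts in the library labelled knockout and 140 to 13702 in the library labelled wild type. Their levels were not all alike. In the library labelled knockout Lyz2 was 2.55-fold higher (2.46 to 2.64) and Adgre1 3.58-fold lower (3.02 to 4.26). The other 8 differed by less than 2-fold. Of 25 markers of T cells, B cells, fibroblasts, epithelial cells and neutrophils, none exceeded 4 counts in the library labelled knockout or 3 in the library labelled wild type. In bulk RNA, fewer cells that express a gene and less RNA per cell cannot be told apart.

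Psd4 encodes EFA6B, an exchange factor for ARF6. The gene (ENSMUSG00000026979, GRCm38 chromosome 2, 24367580 to 24414954, plus strand) gave 2 counts in the library labelled knockout and 408 in the library labelled wild type. These counts amount to 0.106 CPM in the library labelled knockout (counts per 1000000 after scaling, with an exact Poisson interval of 0.0128 to 0.382) and to 26.1 CPM in the library labelled wild type (23.6 to 28.7). Psd4 transcripts were thus near the limit of detection in the library labelled knockout and well above it in the library labelled wild type. The difference was 247-fold (exact interval 67.8 to 2043). On the log2 scale, with 0.5 counts added to each library, the ratio was -7.63. This ratio and all that follow have the library labelled knockout on top. The authors' deposited log2 fold change for Psd4 is -7.85. It comes from the same libraries, by a method that no source used here gives. No annotated exon of another gene overlaps the exons of Psd4.

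**Figure D1:**
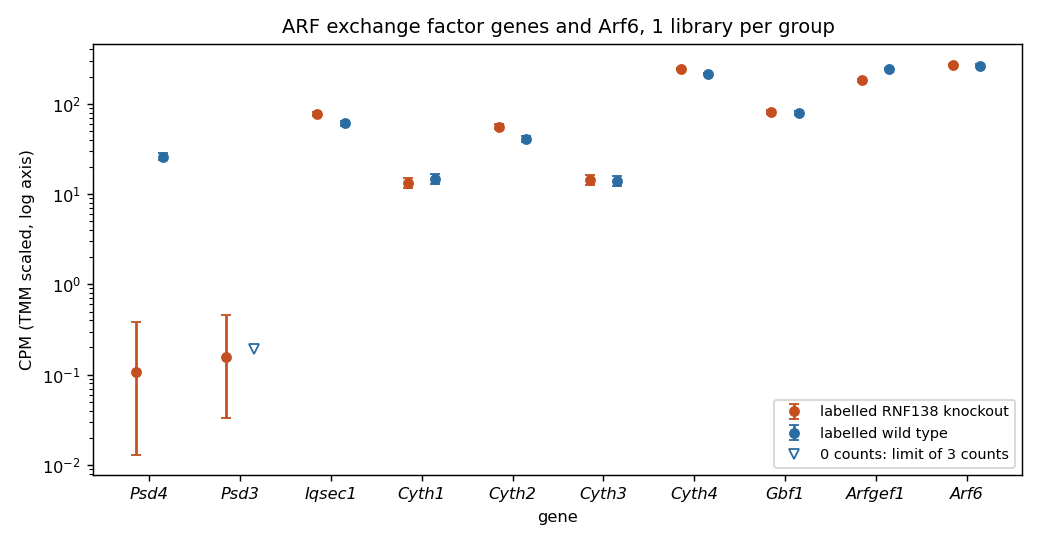
Levels of the 10 genes in CPM on a log axis, with the library labelled RNF138 knockout left of the library labelled wild type for each gene and exact Poisson intervals for counting error. Psd4 lies at 0.106 CPM in the library labelled knockout and at 26.1 CPM in the library labelled wild type, Psd3 is near or at 0 in both (the open triangle marks the limit that 0 counts allow), and the other 8 genes lie close together in the pair.

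Few genes differed as much as Psd4. Since Psd4 was chosen for its values, its place among all genes is a description only. It reached the count limits used here only through the library labelled wild type. Of 9151 genes with at least 100 counts in the library labelled wild type, 4, Psd4 among them, stood at or under 1% of that CPM in the library labelled knockout, and 13 stood at or under 10%. In the other direction, 0 of 9570 genes with at least 100 counts in the library labelled knockout stood at or under 1% in the library labelled wild type, and 7 at or under 10%. The Psd4 log2 ratio ranked 4 from the lowest among the 12668 measured genes, those with a mean count of at least 10. Protein-coding genes with a CPM in the library labelled wild type within 1.5-fold of that of Psd4 numbered 1980, of which 1551 had a log2 ratio within 0.5 of 0, and their median was 0.03. Genes most like Psd4 were sought among these, as the 5 whose log2 ratio over the 2 libraries was nearest to it, and 4 of the 5 are given here. None of the 4 came close, but the nearest of the 5 is not among them. Psd4 is therefore not called unmatched at its level. Adgre5, an adhesion receptor gene also known as Cd97, had 19 counts in the library labelled knockout and 326 in the library labelled wild type, a log2 ratio 3.29 away from that of Psd4. Exons of Ddx39 cover 23.8% of the Adgre5 exons on the opposite strand. The strand setting is not given, so how reads of that overlap were counted is not known. Spink5, a protease inhibitor gene, had 81 counts in the library labelled knockout and 518 in the library labelled wild type, 4.68 away. Tceal9 was 4.90 away, with 78 counts in the library labelled knockout and 428 in the library labelled wild type. P2ry12, a purinergic receptor gene, was 5.36 away, with 100 counts in the library labelled knockout and 399 in the library labelled wild type.

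**Figure D2:**
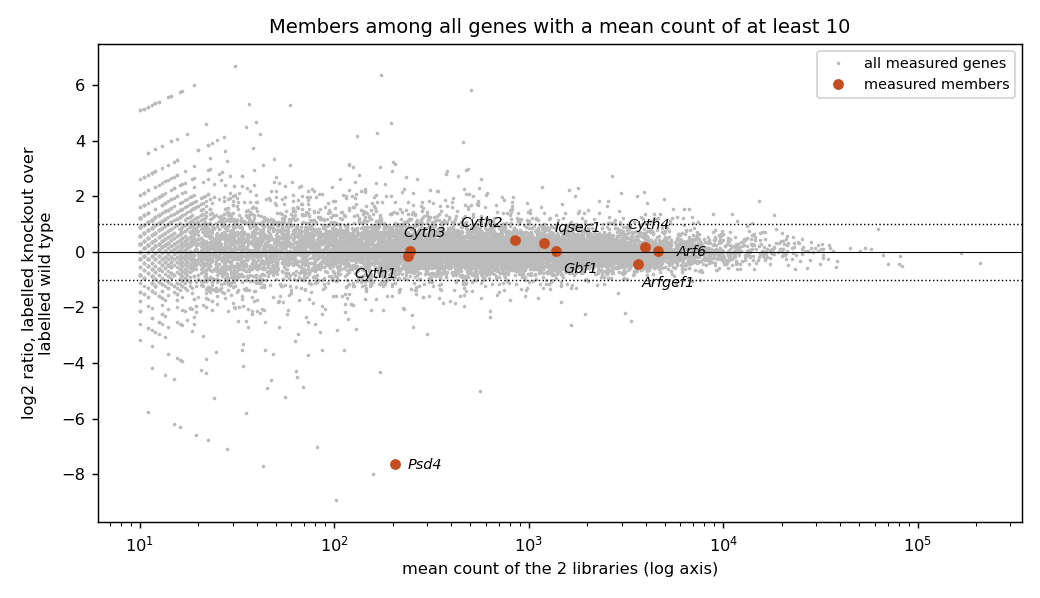
Log2 ratio (labelled knockout to labelled wild type) against the mean count of the libraries on a log axis for the 12668 measured genes (grey) and the 9 measured members (colour), with dotted lines at 2-fold. Psd4 stands at -7.63, while the other 8 measured members lie between -0.43 and 0.44, inside the dotted lines.

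Il1rn and Ehmt1, the genes around Psd4 with the most counts, did not share its difference. Within 500 kb of the gene body the table lists 26 other genes, of which 16 had 0 counts in both libraries and 4 were measured. Il1rn, which encodes the interleukin-1 receptor antagonist and lies 16.1 kb before Psd4, had 320 counts in the library labelled knockout and 118 in the library labelled wild type, a ratio of 2.24 (1.81 to 2.79). Il1f6, an interleukin-1 family cytokine gene, had 20 counts in the library labelled knockout and 4 in the library labelled wild type (ratio 4.14, 1.39 to 16.6). On the far side of Psd4, the calcium channel gene Cacna1b had 22 counts in the library labelled knockout and 4 in the library labelled wild type (ratio 4.55, 1.55 to 18.2). Ehmt1, a histone methyltransferase gene 375 kb away, had 836 counts in the library labelled knockout and 727 in the library labelled wild type (ratio 0.951, 0.860 to 1.05). Il1f6 and Cacna1b reached the minimum mean count of 10 only through the library labelled knockout, where they were higher, so nothing is read from how many measured neighbours were higher or lower. The nearest gene beyond the Psd4 end, Pax8, had 0 counts in both.

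**Figure D3:**
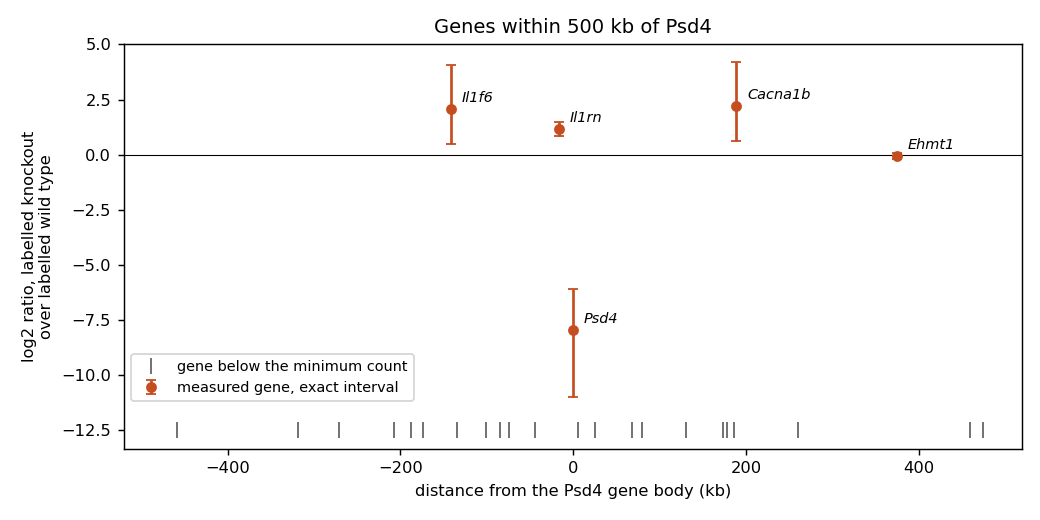
Log2 ratio of scaled counts (labelled knockout to labelled wild type), with its exact interval, against distance from the Psd4 gene body in kb, for Psd4 and the 4 measured genes within 500 kb. Ticks mark the 22 genes below the minimum count. Of the 5 genes with a point, Psd4 alone lies far below 0, beside Il1rn, Il1f6 and Cacna1b above 0 and Ehmt1 at about 0.

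Psd3, the other EFA6 gene among the members (ENSMUSG00000030465, GRCm38 chromosome 8, 67689082 to 68212027, minus strand), encodes EFA6D. It had 3 counts in the library labelled knockout and 0 in the library labelled wild type, where 0 counts allow up to 0.192 CPM (3 counts). Both values lie at or under that limit, so no fold is given. Psd3 is the 1 member below the minimum mean count of 10. The EFA6 gene with the highest level in both libraries was Psd, which is no member. Psd had 826 counts in the library labelled knockout and 737 in the library labelled wild type (ratio 0.927, 0.839 to 1.02). Nfkb2, with 6601 counts in the library labelled knockout and 3336 in the library labelled wild type, covers 3.92% of the Psd exons on the opposite strand, and its part in the Psd counts was not tested. Psd2 had 10 counts in the library labelled knockout and 7 in the library labelled wild type, below the minimum.

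Iqsec1 encodes BRAG2 (also GEP100), an exchange factor that acts on ARF6 and takes part in integrin endocytosis. The gene (ENSMUSG00000034312, GRCm38 chromosome 6, 90656088 to 90988685, minus strand) gave 1444 counts (76.3 CPM) in the library labelled knockout and 950 (60.7 CPM) in the library labelled wild type. Its ratio was 1.26 (1.16 to 1.37), higher than counting error alone gives but well under 2-fold.

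The cytohesins were all present in both libraries, and none differed by 2-fold. Cyth4, a cytohesin of blood cells (ENSMUSG00000018008, GRCm38 chromosome 15, 78597047 to 78622019, plus strand), gave 4565 counts (241 CPM) in the library labelled knockout and 3355 (214 CPM) in the library labelled wild type, a ratio of 1.13 (1.08 to 1.18). Cyth2, which encodes ARNO (ENSMUSG00000003269, GRCm38 chromosome 7, 45806637 to 45814581, minus strand), stood further from 1. It had 1053 counts (55.6 CPM) in the library labelled knockout and 642 (41.0 CPM) in the library labelled wild type, a ratio of 1.36 (1.23 to 1.499). This was the highest ratio among the measured members. Gm45444 lies over 11.1% of the Cyth2 exons on the opposite strand but had only 3 counts in the library labelled knockout and 0 in the library labelled wild type.

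For Cyth1 and Cyth3 the libraries could not be told apart at this depth. Cyth1, whose product binds the integrin beta-2 chain in leukocytes (ENSMUSG00000017132, GRCm38 chromosome 11, 118132019 to 118248592, minus strand), gave 249 counts in the library labelled knockout and 231 in the library labelled wild type, a ratio of 0.892 (0.743 to 1.07). Cyth3, which encodes GRP1, a phosphoinositide-binding cytohesin (ENSMUSG00000018001, GRCm38 chromosome 5, 143622447 to 143710250, plus strand), gave 271 counts in the library labelled knockout and 220 in the library labelled wild type, a ratio of 1.02 (0.850 to 1.22). These intervals leave room for a level up to 1.35-fold lower for Cyth1 and 1.22-fold higher for Cyth3.

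The Golgi exchange factors differed from each other. Gbf1, which loads ARF1 at the early Golgi and is a target of brefeldin A (ENSMUSG00000025224, GRCm38 chromosome 19, 46152509 to 46286510, plus strand), gave 1524 counts (80.5 CPM) in the library labelled knockout and 1238 (79.1 CPM) in the library labelled wild type. Its ratio was 1.02 (0.944 to 1.10). Arfgef1, which encodes BIG1 of the trans-Golgi network (ENSMUSG00000067851, GRCm38 chromosome 1, 10137571 to 10232670, minus strand), was lower in the library labelled knockout. It had 3437 counts (182 CPM) in the library labelled knockout and 3824 (244 CPM) in the library labelled wild type, a ratio of 0.744 (0.710 to 0.779). After Psd4 this was the lowest ratio among the measured members.

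Arf6, the GTPase that several of these factors act on, stood at nearly the same level in both libraries. The gene (ENSMUSG00000044147, GRCm38 chromosome 12, 69372150 to 69373783, plus strand) gave 5138 counts (271 CPM) in the library labelled knockout and 4148 (264.9 CPM) in the library labelled wild type. Its ratio was 1.02 (0.983 to 1.07), an interval that leaves room for a difference of at most 1.07-fold from counting error, while culture-to-culture spread is not measured. Gm9887 covers 13.6% of the Arf6 exons on the opposite strand, with 15 counts in the library labelled knockout and 14 in the library labelled wild type.

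As a set, the members lay close to the middle of the transcriptome apart from Psd4. A gene was past the size rule if its mean count reached 10, its ratio was 2-fold or more either way and the interval excluded 1. Of the 9 measured members 1, Psd4, was past it and lower in the library labelled knockout, while 8 were not past it and none was higher. Over all measured genes 3.62% were lower and 6.54% higher by the same rule, 10.2% in all, and nothing is read from the count since Psd4 was chosen for its values. The median log2 ratio of the 9 was 0.03, beside 0.02 over all 12668 measured genes. Among the 9, the interval of the ratio lay above 1 for Iqsec1, Cyth2 and Cyth4, below 1 for Psd4 and Arfgef1, and included 1 for Cyth1, Cyth3, Gbf1 and Arf6.

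Levels between genes were compared per length, as CPM per kilobase of the deposited gene length. That length need not match the transcripts expressed, and the counting intervals do not cover this. Per length, Arf6 was by far the most abundant of the 10. Its level was 177 CPM per kilobase in the library labelled knockout (172 to 182) and 173 in the library labelled wild type (167 to 178). Only 2.16% of measured genes stood above it in the library labelled knockout and 1.997% in the library labelled wild type. It exceeded the summed level of the 9 exchange factors by 2.09-fold in the library labelled knockout and 2.07-fold in the library labelled wild type. Cyth4 was the exchange factor with the highest level, at 31.9 CPM per kilobase in the library labelled knockout and 28.4 in the library labelled wild type.

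Below Cyth4 the order differed between the libraries. In the library labelled knockout, Cyth2 (16.1 CPM per kilobase) and Arfgef1 (16.0) could not be separated within their counting intervals. Gbf1 (8.88), Iqsec1 (6.58), Cyth1 (3.37) and Cyth3 (1.52) followed, each with an interval clear of the next. Psd3 and Psd4 came last, both at about 0.0090 CPM per kilobase, with overlapping intervals. In the library labelled wild type, Arfgef1 (21.6) stood above Cyth2 (11.9), and Gbf1 (8.72), Iqsec1 (5.23) and Cyth1 (3.78) followed. Psd4, at 2.21 CPM per kilobase (2.001 to 2.44), came next, clear above Cyth3 (1.49, 1.30 to 1.70), with Psd3 last at 0. Per length, Psd4 was thus a minor exchange factor message even where it was present. It stood at 7.79% of the per-length level of Cyth4 in the library labelled wild type, against 0.0281% in the library labelled knockout. Its place depends on the deposited lengths, 11786 bases for Psd4, 3905 for Cyth1 and 9437 for Cyth3. By CPM alone, the library labelled wild type had Psd4 (26.1) above Cyth1 (14.8) and Cyth3 (14.0). Psd4 still lay below Cyth2 (41.0), Iqsec1, Gbf1, Cyth4 and Arfgef1.

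Summed over 14 exchange factor genes of 4 subfamilies, the per-length level was almost the same, 102 CPM per kilobase in both libraries (ratio 0.994). The make-up differed. EFA6 genes held 5.75% of the sum in the library labelled knockout and 8.29% in the library labelled wild type. Psd supplied 5.71 of the 5.84 CPM per kilobase of EFA6 transcripts in the library labelled knockout and 6.16 of 8.47 in the library labelled wild type. Psd4 supplied 0.0090 in the library labelled knockout and 2.21 in the library labelled wild type. The EFA6 difference is thus mostly that of Psd4, which was chosen for its values. The cytohesins held 52.1% in the library labelled knockout and 44.6% in the library labelled wild type, and the BRAG genes held 7.36% in the library labelled knockout and 5.51% in the library labelled wild type. GBF1 and BIG genes held 34.7% in the library labelled knockout and 41.6% in the library labelled wild type. These shares describe 2 libraries and have no replicate spread.

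**Figure D4:**
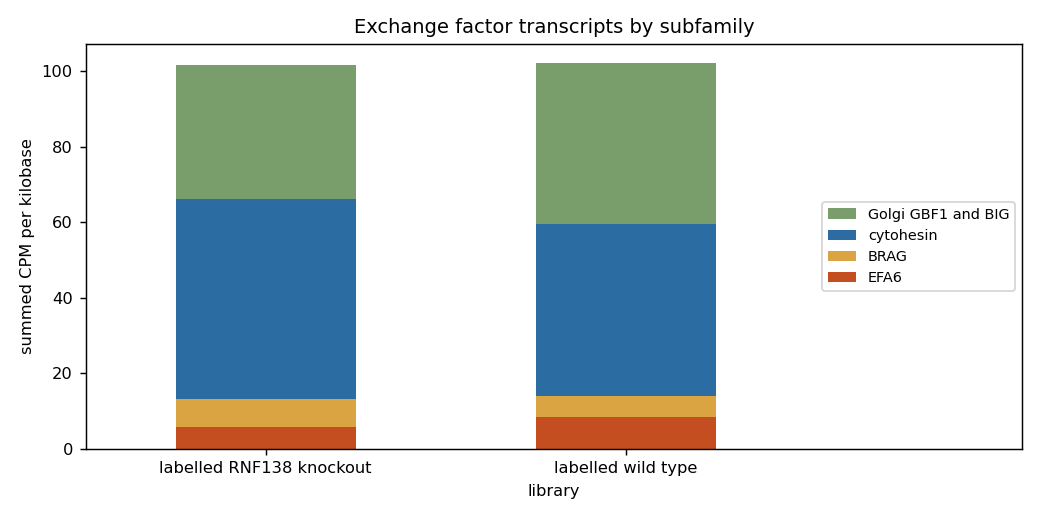
Summed CPM per kilobase of 14 exchange factor genes, stacked by subfamily, in the library labelled RNF138 knockout (left) and the library labelled wild type (right), without replicates and so without error bars. The totals are both near 102, the EFA6 segment is 5.84 in the library labelled knockout and 8.47 in the library labelled wild type, and the cytohesin segment is 53.0 in the library labelled knockout and 45.5 in the library labelled wild type. Psd4 supplies 0.0090 of the EFA6 segment in the library labelled knockout and 2.21 in the library labelled wild type.

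The rest of the ARF pathway was examined through 7 lists with 76 genes, 70 of them measured. By the size rule 3 were higher and 5 lower in the library labelled knockout, 11.4% in all beside 10.2% of all measured genes, and the median log2 ratio was -0.01. Of the other exchange factors and related proteins, 1 of 6 measured was past the rule. Iqsec2, a BRAG gene best known from neurons, had 115 counts in the library labelled knockout and 43 in the library labelled wild type, a ratio of 2.21 (1.55 to 3.22). The remaining 5 had log2 ratios from -0.56 to -0.07, among them Arfgef2, which encodes BIG2, with 1719 counts in the library labelled knockout and 1679 in the library labelled wild type (ratio 0.847, 0.791 to 0.906).

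Partners of the cytohesins were lower by the size rule in the library labelled knockout in 3 of 4 measured genes, beside 3.62% of all measured genes. Their median log2 ratio was -1.72, beside 0.02 over all measured genes. The list holds only 5 genes and was chosen with earlier results of these data known. Nothing is therefore read from its count or its median. Cytip, which encodes a scaffold protein of leukocytes that binds cytohesin-1, had 88 counts in the library labelled knockout and 238 in the library labelled wild type, 3.27-fold lower (2.55 to 4.22). Grasp, also named tamalin, which encodes a scaffold that binds cytohesins, had 35 counts in the library labelled knockout and 97 in the library labelled wild type, 3.35-fold lower (2.25 to 5.08). Cnksr1, the gene of a scaffold protein reported to bind cytohesins, had 15 counts in the library labelled knockout and 73 in the library labelled wild type, 5.88-fold lower (3.34 to 11.0). The integrin beta-2 gene Itgb2 had 2615 counts in the library labelled knockout and 1826 in the library labelled wild type, a log2 ratio of 0.24, and Ipcef1 had 0 counts in both. The genes that were lower were weakly expressed, at 0.792 to 4.65 CPM in the library labelled knockout and 4.66 to 15.2 CPM in the library labelled wild type.

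**Figure D5:**
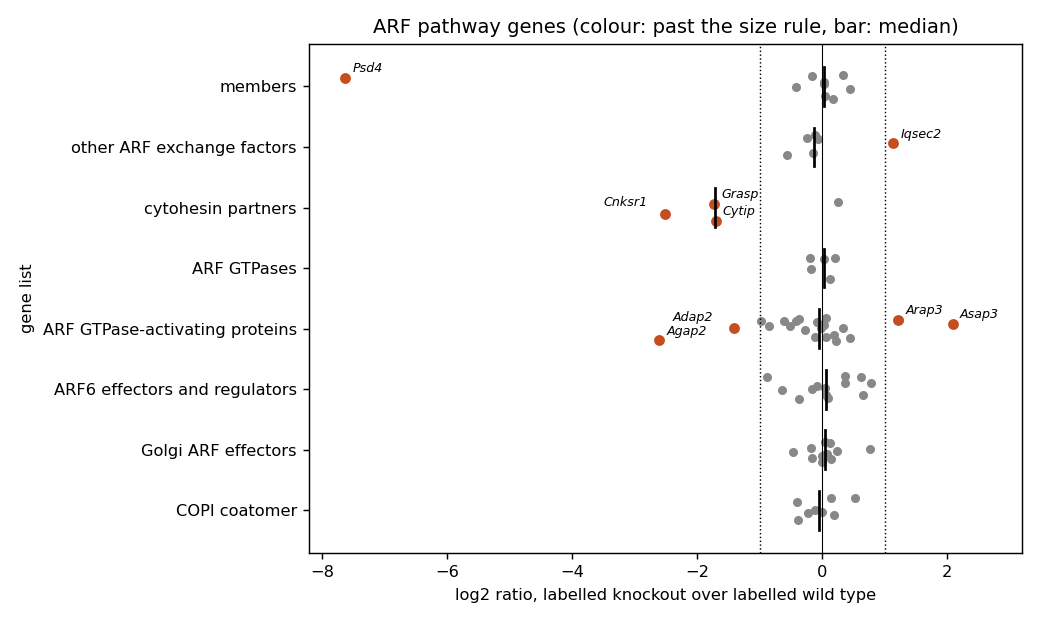
Log2 ratio (labelled knockout to labelled wild type) of the measured genes of each ARF pathway list, with the median as a vertical bar, dotted lines at 2-fold and genes past the size rule named and coloured. Psd4 stands at -7.63, 3 cytohesin partners lie between -2.52 and -1.70, and the medians of the other lists lie between -0.13 and 0.06.

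No ARF GTPase gene was past the rule, beside 10.2% of all measured genes, and nothing is read from this in so short a list. The 5 genes beside Arf6 had log2 ratios from -0.19 to 0.20, with 10894 counts for Arf1 in the library labelled knockout and 8309 in the library labelled wild type (ratio 1.08, 1.05 to 1.12). Arf3 had 4818 counts in the library labelled knockout and 3469 in the library labelled wild type (ratio 1.15, 1.10 to 1.20). Among the GTPase-activating proteins, which switch ARFs off, 2 of 22 measured genes were higher and 2 lower by the size rule, beside 6.54% higher and 3.62% lower of all measured genes, with a median of -0.05 beside 0.02 over all. Asap3 and Adap2 reached the minimum mean count only through the library in which they were higher. Asap3 had 38 counts in the library labelled knockout and 7 in the library labelled wild type, 4.49-fold higher (1.98 to 11.9). Arap3, whose product responds to phosphoinositide signals, had 2762 counts in the library labelled knockout and 983 in the library labelled wild type, 2.32-fold higher (2.16 to 2.50). Agap2 went the other way, with 26 counts in the library labelled knockout and 133 in the library labelled wild type, 6.18-fold lower (4.04 to 9.81). Adap2 had 7 counts in the library labelled knockout and 16 in the library labelled wild type, 2.76-fold lower with an interval of 1.08 to 7.94.

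No measured gene of the ARF6 effector, Golgi effector and COPI lists was past the rule, beside 10.2% of all measured genes. Each list is small, so nothing is read from this. None of 13 measured ARF6 effectors and regulators passed, with a median of 0.06. Ehd1, which takes part in endosomal recycling, had 18896 counts in the library labelled knockout and 9954 in the library labelled wild type (ratio 1.57, 1.53 to 1.61). Rac1, the actin-regulating GTPase gene, had 6006 counts in the library labelled knockout and 6418 in the library labelled wild type (ratio 0.774, 0.747 to 0.802). Daglb covers 51.4% of its exons on the opposite strand, which makes the Rac1 value uncertain. None of 12 Golgi ARF effectors passed (median 0.04). Among them the clathrin adaptor gene Ap1s1 had 4079 counts in the library labelled knockout and 1996 in the library labelled wild type (ratio 1.69, 1.60 to 1.78). Ap1g1, of the same adaptor complex, had a ratio of 0.996 (0.943 to 1.05). None of 8 measured COPI coat genes passed (median -0.06). Copa had 9255 counts in the library labelled knockout and 5322 in the library labelled wild type (ratio 1.44, 1.39 to 1.49), with exons of Ncstn and Gm37756 over 9.58% of its exons on the opposite strand. Arcn1 had a ratio of 0.924 (0.891 to 0.958).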

How the data were processed

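The authors deposited raw read counts per gene on GRCm38. The submitters' processing notes name featureCounts 1.5.0-p3, HISAT2 2.0.5 and CASAVA 1.8 with no role for each, and no source used here gives the strand setting. The deposited FPKM equal counts per gene length and per fixed library total. The deposited signal columns are counts the authors scaled between libraries, and the deposited log2 fold changes and p-values come from a method that no source used here gives. The deposited log2 fold changes are not plain ratios of the scaled counts where counts are low: Psd3 has one although it has 0 counts in the library labelled wild type. Gene lengths are the authors'.

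Counts were scaled with TMM in edgeR 4.0.16 (R 4.3.3), and with 1 library per group no test of edgeR or DESeq2 was run. Ratio intervals are Clopper-Pearson intervals conditional on the summed count, and 3 counts stand for the limit of a 0. Intervals cover counting error only, since each group had 1 library. They treat every read as independent, while PCR copies without molecular identifiers are counted as separate reads, so the intervals can be too narrow. Exon overlap and sequences came from GENCODE M21, in which 54495 of 54532 identifiers were found. The procedure was tested on simulated data. Named genes were all members, up to 4 genes per list with the largest difference past the size rule (the 2 most abundant where none passed), measured neighbours within 500 kb of Psd4, and 5 genes most like Psd4. Some genes under this rule are not reported here. Psd, Psd2, Arfgef2, Itgb2, Ipcef1 and Pax8 were named after their values were seen. Members and lists were chosen with earlier results of these data known. Alternatives were upper-quartile factors, total counts, size factors of DESeq2 1.42.0, 5 counts added, log2 of FPKM plus 1, and other limits of the size rule.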

Additional observations from a re-analysis of the deposited data

How the results depend on the processing

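Psd4 kept its direction under all 5 alternatives, with log2 ratios of -7.64 under DESeq2 1.42.0 size factors, total counts or upper-quartile factors and -6.16 with 5 counts added. On log2 of the deposited FPKM plus 1, a scale that by construction shrinks ratios of weakly expressed genes, it was -1.71. The Arf6 log2 ratio stayed between 0.02 and 0.04, and the 8 other members stayed within their counting intervals in all 40 alternatives. For Psd3 this says little, since 0 counts in the library labelled wild type leave its interval without an upper end. Psd4 remained the only member past the size rule under all 9 alternatives. Of the other pathway lists 8 genes passed. This number was 2 with a minimum mean count of 100, 16 at 1.5-fold, 3 at 4-fold and 5 with an interval wholly beyond 2-fold. The share of all genes past these changed rules was not counted, so nothing is read from these numbers about the lists. The scalings shifted the median log2 ratio of all genes by -0.0172 to -0.00996. No paired analysis was possible because each group has 1 library, and for the same reason no library could be left out. Depth limits Psd3, and for Psd4 sets the width of its interval.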
